A study of Homo sapiens with 12 samples.

Results

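The CHD genes encode chromodomain helicase DNA-binding proteins, ATP-dependent enzymes that move or remodel nucleosomes. The set comprised CHD1 to CHD9, taken from the deposited array table as the entries annotated to 1 gene whose values carry 3 decimals. All 9 genes were found among 16913 genes kept, each with 1 distinct set of values, and 8 passed the brightness filter described here. The filter kept 10148 genes with a mean log2 signal of at least 5.94 over all arrays, with CHD6 just inside it (6.15) and CHD5 outside it (5.34). The set was listed with results of these data known, in particular that CHD2 lay higher at 100 nM in TC32, which means that the members were chosen by family and by that measured difference, and the comparison of 100 nM with DMSO in TC32 is given as a description without a test.

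The arrays measured total RNA of A673 and TC32, established human cell lines of Ewing sarcoma, a bone and soft tissue tumour driven in these lines by the EWS/FLI fusion. Each line was treated for 6 hours with THZ531 at 100 nM, with THZ531 at 500 nM or with the solvent DMSO, with 2 arrays in each of the 6 groups. The labels name the agent THZ_5_31_1, and the study title speaks of CDK12 inhibition. A dose that the labels print on the DMSO samples was taken not to apply. THZ531 covalently inhibits the kinases CDK12 and CDK13, which phosphorylate RNA polymerase II during elongation. No batch is named in the labels.

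Array medians over all kept genes differed between groups. Many differences are therefore given both on the deposited scale and after centring each array on its median. A difference printed without a scale is as deposited. At 500 nM, centring took out -0.83 (log2) in A673 and -0.79 in TC32. At 100 nM it took out -0.62 and -0.20, and between the lines under DMSO, A673 minus TC32, 0.69. Replicates correlated across genes at 0.9906 to 0.9968, and the median gene differed by 0.52 between the pair of A673 500 nM arrays, with replicate 1 higher. Of the 7 Ewing markers measured, CD99, NKX2-2, STEAP1 and CCND1 had a signal of at least 8.27 on all 12 arrays. LIPI ran from 6.66 to 9.80, BCL11B from 6.51 to 10.9 and FLI1 from 5.45 to 10.9, with the lowest FLI1 value, in TC32, under the filter level. The leukocyte marker PTPRC and the epithelial marker EPCAM stayed at or below 4.40, and the other leukocyte marker with values, CD3E, ran from 5.49 to 6.38 in A673 and from 5.16 to 5.60 in TC32. KRT18, an epithelial keratin, was at 11.6 to 12.3 in A673 and 5.04 to 5.63 in TC32. At 500 nM 7 of 7 tested Ewing markers were lower in A673 and 6 of 7 in TC32 as deposited, where 82.5% and 62.9% of all tested genes were. After centring, 3 were lower and 2 higher in A673, and 4 lower and 2 higher in TC32, where 27.4% and 29.6% and then 30.8% and 41.3% of all tested genes were. The part of these markers in the results was not tested. In RNA from whole cultures, fewer cells and less RNA per cell cannot be told apart.

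CHD proteins share paired chromodomains and a SNF2-type ATPase motor. CHD1 and CHD2 space nucleosomes behind and around transcribing RNA polymerase II, and CHD1 binds the histone mark of active promoters. CHD3, CHD4 and CHD5 are alternative motors of the NuRD complex, which joins nucleosome remodelling to histone deacetylation. CHD6, CHD7, CHD8 and CHD9 form the last subfamily, in which CHD7 acts at enhancers and CHD8 restrains beta-catenin target genes.

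At 500 nM in A673 most members were lower as deposited, as most tested genes were, with CHD1, CHD9 and CHD6 lowest and CHD2 higher than DMSO. As deposited, 7 of the 8 tested members were lower, where 82.5% of all tested genes were, and 1 was higher, where 0.946% of all were. The median difference of the members was -1.02, against -0.73 over all tested genes. Relative to the array medians 4 members were lower and 2 higher, against 27.4% and 29.6% of all tested genes, and the member median was -0.18 against 0.10. The lower members on this scale were CHD1, CHD6, CHD8 and CHD9, and the higher ones were CHD2 and CHD4. CHD6 stands in both counts of lower members as a description, since its arrays at this dose lay under the filter level.

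At 100 nM in A673, CHD9 fell and CHD2 rose on both scales. As deposited, 5 members were lower (58.7% of all tested genes were) and 1 was higher (1.31% of all were), with a member median of -0.49 against -0.52 over all tested genes. After centring, 1 member, CHD9, was lower and 2, CHD2 and CHD4, were higher, against 17.1% and 24.4% of all tested genes. The as-deposited count of 5 lower members was 2 with A673 DMSO replicate 1 left out, and likewise 2 without either 100 nM array.

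**Figure D1:**
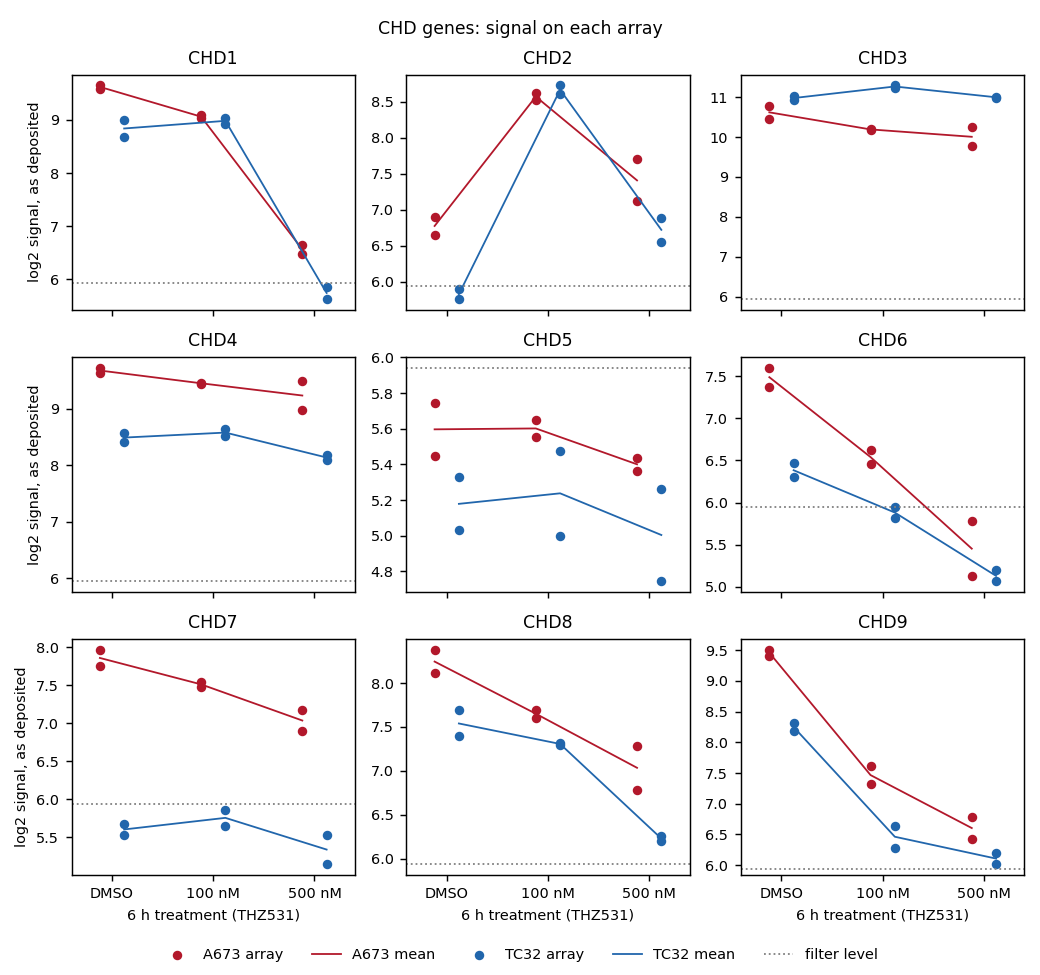
Log2 signal as deposited (vertical axis) of each CHD gene on each array after DMSO, 100 nM or 500 nM THZ531 (horizontal axis), with A673 in red and TC32 in blue; points are arrays, lines join group means and the dotted line is the filter level of 5.94. CHD2 peaks at 100 nM in both lines, CHD1 drops at 500 nM, and CHD9 is already low at 100 nM.

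The sequences before the starts of CHD1, CHD2 and CHD9 are given because these members carry the 3 dose patterns described next, low signal at the higher dose, a peak at the lower dose and low signal at both. They are the 250 bases upstream of the RefSeq start on GRCh38.p14, written 5′ to 3′ in the direction of the gene, with motif matches in capitals. RefSeq promoter entries were used for 6 members, and CHD9 has 4 starts, of which the most upstream is shown. CHD1 lies at chr5:98929008-98929257 on the minus strand, CHD2 at chr15:92900074-92900323 on the plus strand and CHD9 at chr16:53054741-53054990 on the plus strand.
CHD1: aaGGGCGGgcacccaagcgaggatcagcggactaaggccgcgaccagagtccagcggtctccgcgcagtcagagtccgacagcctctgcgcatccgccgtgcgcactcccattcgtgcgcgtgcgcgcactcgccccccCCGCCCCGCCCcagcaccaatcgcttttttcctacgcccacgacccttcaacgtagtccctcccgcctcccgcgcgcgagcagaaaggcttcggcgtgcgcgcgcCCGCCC
CHD2: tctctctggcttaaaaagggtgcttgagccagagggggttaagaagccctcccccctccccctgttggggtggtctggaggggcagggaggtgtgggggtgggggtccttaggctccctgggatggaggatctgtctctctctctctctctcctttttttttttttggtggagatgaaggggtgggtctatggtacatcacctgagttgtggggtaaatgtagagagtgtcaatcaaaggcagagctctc
CHD9: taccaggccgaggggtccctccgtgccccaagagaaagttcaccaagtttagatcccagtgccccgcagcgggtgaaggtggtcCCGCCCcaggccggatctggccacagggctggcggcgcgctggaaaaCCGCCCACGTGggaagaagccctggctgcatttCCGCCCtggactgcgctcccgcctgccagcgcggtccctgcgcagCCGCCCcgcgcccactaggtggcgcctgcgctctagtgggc

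Searched on both strands were GGGCGG (the GC box), CCGGAAG (an ETS motif), GGAAGGAA (a repeat of the ETS core), TATAAA and CACGTG (the E-box). The CHD1 window held 4 GC boxes, and the CHD9 window held 4 GC boxes and 1 E-box, which overlaps a GC box. None of the 5 motifs occurred in the CHD2 window. Among 35116 promoter windows of that length, 42.6% held a GC box, 6.34% an E-box, 8.52% the ETS motif, 3.06% the repeat and 10.7% TATAAA. The CHD1 window held 36 CpG, the CHD9 window 22 and the CHD2 window 0, against a median of 11 over all windows. The windows of the other CHD9 starts held 33, 1 and 2 CpG, with a GC box in the first and no motif match in the others. These are descriptions of the letters only.

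CHD2 was highest at 100 nM in both lines. In A673 its log2 signal was 6.653 and 6.894 on the DMSO arrays, 8.519 and 8.626 on the 100 nM arrays and 7.700 and 7.115 on the 500 nM arrays. The groups did not overlap, and both 500 nM arrays lay between the DMSO and the 100 nM arrays. In A673 CHD2 rose at 100 nM by 1.80 ± 0.21 (log2, SE, n = 2 against 2; limma adjusted p 3.67e-16), which is 3.48-fold, and by 2.42 relative to the array medians (adjusted p 7.21e-11). This difference ranked 7 from the highest among the 10148 tested genes, and it lay between 1.68 and 1.92 without each array in turn.

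At 500 nM in A673, CHD2 was 0.63 ± 0.21 above DMSO (adjusted p 0.00387) and 1.47 above it in relative terms (adjusted p 2.22e-08). The as-deposited call ended with A673 DMSO replicate 1 left out (0.51, adjusted p 0.0806) or with 500 nM replicate 1 left out (0.34, adjusted p 0.0574), and with 500 nM replicate 2 left out the value was 0.93. Between the doses CHD2 was lower at 500 nM than at 100 nM, by -1.17 ± 0.21 as deposited (adjusted p 3.23e-07) and -0.95 relative (adjusted p 1.86e-05).

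In TC32 the CHD2 signal was 5.894 and 5.756 on the DMSO arrays, 8.731 and 8.603 on the 100 nM arrays and 6.549 and 6.891 on the 500 nM arrays. Again no groups overlapped, with the DMSO mean under the filter level. The 100 nM mean of 8.67 against the DMSO mean of 5.83 makes a difference of 2.84 ± 0.21, at least 6.61-fold counted from the filter level, which is a description since it was known when the genes were listed. At 500 nM CHD2 was 0.90 ± 0.21 above DMSO in TC32, at least 1.71-fold, and 1.69 above it in relative terms. That comparison shares its DMSO arrays with the 100 nM one, so it is also a description. At 500 nM against 100 nM CHD2 differed by -1.95 in TC32, described without a test.

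CHD1 moved in the other direction and at the higher dose. Its signal in A673 was 9.587 and 9.649 on the DMSO arrays, 9.026 and 9.091 on the 100 nM arrays and 6.646 and 6.484 on the 500 nM arrays. In TC32 it was 8.989 and 8.684 on the DMSO arrays, 9.042 and 8.918 on the 100 nM arrays and 5.631 and 5.862 on the 500 nM arrays. The 500 nM arrays lay far below all others in each line, while the 100 nM and DMSO arrays of TC32 overlapped.

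CHD1 fell at 500 nM by 3.05 ± 0.21 in A673 (adjusted p 1.71e-46), 8.30-fold lower, and was at -2.22 in relative terms (adjusted p 1.18e-11). In TC32 it fell by 3.09 ± 0.21 (adjusted p 9.93e-48), at least 7.43-fold lower, and was at -2.30 in relative terms (adjusted p 4.14e-12). The difference of these effects, TC32 minus A673, was -0.04 ± 0.30 (adjusted p 0.982). At 100 nM in A673 the difference was -0.56 ± 0.21 (adjusted p 0.0157), a call absent relative to the array medians (0.06, adjusted p 0.76). It also ended without either A673 DMSO array (adjusted p 0.0796 and 0.0817) or either 100 nM array (0.109 and 0.0809). Between the doses in A673, CHD1 was lower at 500 nM by -2.49 ± 0.21 (adjusted p 5.61e-30), and only 9 of the 10148 tested genes had a lower fitted value.

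CHD9 fell at both doses. In A673 its signal was 9.503 and 9.411 on the DMSO arrays, 7.614 and 7.319 on the 100 nM arrays and 6.785 and 6.424 on the 500 nM arrays. TC32 had 8.307 and 8.190 on the DMSO arrays, 6.282 and 6.644 on the 100 nM arrays and 6.022 and 6.193 on the 500 nM arrays. As deposited the 3 groups of each line did not overlap, and most of the drop was present at 100 nM. Relative to the array medians the TC32 arrays were at -0.077 and 0.407 at 100 nM and 0.28 and 0.513 at 500 nM. On that scale these doses overlapped in TC32, and the mean was higher at 500 nM (0.397) than at 100 nM (0.165).

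In A673 CHD9 fell at 100 nM by 1.99 ± 0.21 (adjusted p 1.39e-19), 3.97-fold lower, and was at -1.37 in relative terms (adjusted p 1.23e-07). At 500 nM it fell by 2.85 ± 0.21 (adjusted p 8.68e-41), 7.22-fold lower, and was at -2.02 in relative terms. Between the doses it was lower at 500 nM than at 100 nM by -0.86 ± 0.21 (adjusted p 0.000253; relative -0.65, adjusted p 0.000883); that call was lost with 100 nM replicate 1 left out (-0.71, adjusted p 0.0534). In TC32 CHD9 fell at 500 nM by 2.14 ± 0.21 (adjusted p 1.11e-23), 4.41-fold lower, and was at -1.35 in relative terms (adjusted p 2.8e-08). At 100 nM in TC32 the difference was -1.79, given without a test.

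CHD6, whose product is among the less studied remodellers, was lower with rising dose. In A673 its signal was 7.373 and 7.601 on the DMSO arrays, 6.626 and 6.453 on the 100 nM arrays and 5.778 and 5.129 on the 500 nM arrays. The TC32 values were 6.464 and 6.303 on the DMSO arrays, 5.947 and 5.816 on the 100 nM arrays and 5.064 and 5.197 on the 500 nM arrays. The groups of a line did not overlap, and all 4 arrays at 500 nM lay under the filter level. CHD6 thus passed the filter through its other arrays, and its being lower at 500 nM is not independent of that choice. Its 500 nM differences are therefore described without a test. They were -2.03 ± 0.22 in A673 (relative -1.20), at least 2.92-fold lower, and -1.25 ± 0.22 in TC32 (relative -0.46). At 100 nM in A673 it was at -0.95 ± 0.22 as deposited (adjusted p 0.000117) and -0.33 in relative terms (adjusted p 0.0929).

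CHD8 fell at 500 nM in both lines. Its signal in A673 was 8.377 and 8.112 on the DMSO arrays, 7.603 and 7.699 on the 100 nM arrays and 7.288 and 6.783 on the 500 nM arrays. In TC32 it was 7.688 and 7.392 on the DMSO arrays, 7.291 and 7.323 on the 100 nM arrays and 6.255 and 6.206 on the 500 nM arrays. No groups of a line overlapped. At 500 nM it fell by 1.21 ± 0.21 in A673 (adjusted p 2.68e-08; relative -0.38, adjusted p 0.00976) and by 1.31 ± 0.21 in TC32 (adjusted p 1.4e-09; relative -0.52, adjusted p 0.000588). At 100 nM in A673 it was at -0.59 (adjusted p 0.0104) as deposited and 0.02 in relative terms (adjusted p 0.884). That call ended with A673 DMSO replicate 1 (adjusted p 0.166) or either 100 nM array left out (0.0958 and 0.0567).

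CHD7, which is mutated in CHARGE syndrome, had a higher signal in A673 than in TC32. In A673 its signal was 7.964 and 7.753 on the DMSO arrays, 7.476 and 7.546 on the 100 nM arrays and 7.175 and 6.896 on the 500 nM arrays. In TC32 all 6 arrays lay under the filter level, between 5.15 and 5.86, so folds are not given there. At 500 nM in A673 CHD7 was at -0.82 ± 0.22 as deposited (adjusted p 0.000319). In relative terms it was at 0.01 (adjusted p 0.96), so the fall was not seen after centring. In TC32 it was at -0.26 as deposited and 0.53 in relative terms. These TC32 values are described without a test, since CHD7 passed the filter only through its A673 arrays.

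For the NuRD motors CHD3 and CHD4 the direction at 500 nM in A673 turned with the scaling. CHD3 in A673 was at 10.779 and 10.456 on the DMSO arrays, 10.175 and 10.205 on the 100 nM arrays and 10.248 and 9.763 on the 500 nM arrays. TC32 had 11.021 and 10.929 on the DMSO arrays, 11.296 and 11.233 on the 100 nM arrays and 11.012 and 10.977 on the 500 nM arrays. The 500 nM and DMSO arrays of TC32 overlapped, and those of A673 did not. At 500 nM CHD3 was at -0.61 ± 0.19 in A673 (adjusted p 0.002; relative 0.22, adjusted p 0.0578) and at 0.02 ± 0.19 in TC32 (adjusted p 0.93; relative 0.81, adjusted p 2.07e-07). The A673 call ended with A673 DMSO replicate 1 left out (-0.45, adjusted p 0.1), and with 500 nM replicate 2 left out the value was -0.37.

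CHD4 in A673 was at 9.732 and 9.628 on the DMSO arrays, 9.441 and 9.467 on the 100 nM arrays and 9.495 and 8.979 on the 500 nM arrays. The TC32 values were 8.577 and 8.407 on the DMSO arrays, 8.647 and 8.514 on the 100 nM arrays and 8.190 and 8.088 on the 500 nM arrays. Both 500 nM arrays lay below both DMSO arrays in each line. At 500 nM the difference was -0.44 ± 0.21 in A673 (adjusted p 0.0406) and -0.35 ± 0.21 in TC32 (adjusted p 0.123), but 0.39 (adjusted p 0.00533) and 0.44 (adjusted p 0.00148) in relative terms. The as-deposited call in A673 ended without any 1 of 11 arrays, with adjusted p up to 0.199, and held only with 500 nM replicate 1 left out (-0.70). The TC32 difference passed the test without either A673 500 nM array (adjusted p 0.00326 and 0.00329).

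At 100 nM in A673, CHD3 was at -0.43 ± 0.19 (adjusted p 0.0399; relative 0.19, adjusted p 0.121) and CHD4 at -0.23 ± 0.21 (adjusted p 0.318; relative 0.39, adjusted p 0.00696). The CHD3 call ended without any 1 of 9 arrays, with adjusted p up to 0.397. Without either A673 500 nM array the CHD4 difference passed the test as deposited (adjusted p 0.0429 each). CHD7 was at -0.35 ± 0.22 there (adjusted p 0.144; relative 0.27, adjusted p 0.111). In TC32 at 100 nM the differences without a test were 0.29 for CHD3, 0.09 for CHD4, 0.14 for CHD1, 0.15 for CHD7, -0.50 for CHD6 and -0.23 for CHD8. Relative to the array medians CHD3 was there at 0.50 and CHD1 at 0.35.

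CHD5, a NuRD motor best known from the nervous system, had the lowest mean signal of the members and was not tested. Its values ran from 5.36 to 5.75 in A673 and from 4.74 to 5.48 in TC32, all below that level.

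**Figure D2:**
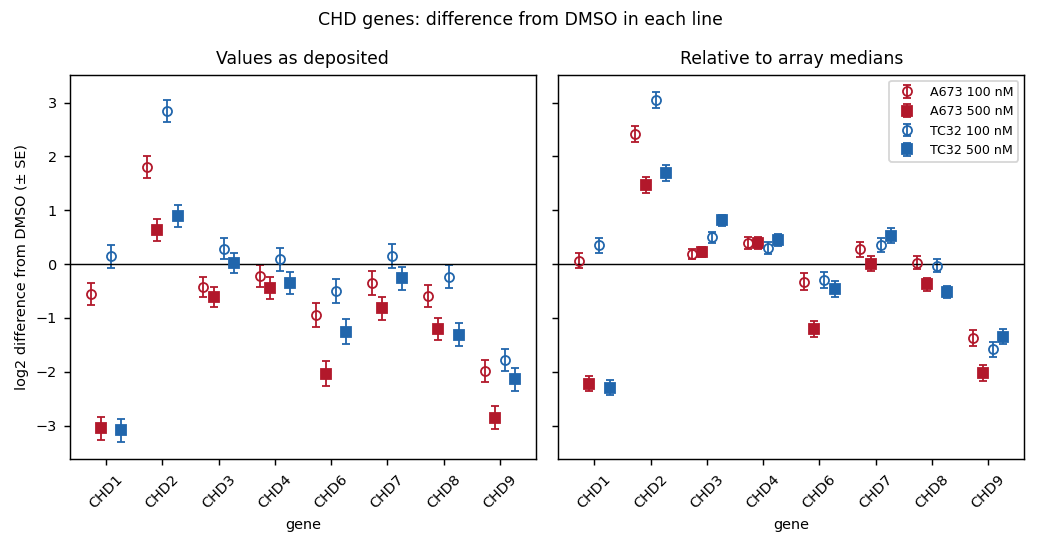
Log2 difference from DMSO with its SE (vertical axis) for the 8 tested CHD genes (horizontal axis) at 100 nM (open circles) and 500 nM (filled squares) in A673 (red) and TC32 (blue), as deposited on the left and relative to the array medians on the right. CHD2 stands above 0 and CHD9 below 0 in every comparison on both scales, CHD1 is near -3 as deposited at 500 nM, and CHD3 and CHD4 at 500 nM lie above 0 in the right panel.

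Between the doses in A673, 5 members were lower at 500 nM than at 100 nM as deposited, where 26.7% of all tested genes were, and 5 also relative to the array medians, where 25.1% were. They were CHD1, CHD2, CHD6, CHD8 and CHD9 on both scales, and the member median was -0.74 against -0.19 over all tested genes. CHD6 is among them as a description, since its 500 nM arrays lay under the filter level. By limma 0 members were higher, also at an unadjusted p under 0.05, where 0.897% of all tested genes were (10.4% after centring, with 0 members). The count of 5 was 8 with 500 nM replicate 1 left out and 3 with 100 nM replicate 1 left out. The CHD8 call (-0.62, adjusted p 0.014) ended without either 100 nM array (adjusted p 0.0813 and 0.154) or with 500 nM replicate 2 left out (0.0942). CHD7 was at -0.48 (adjusted p 0.0926), and at -0.61 with 500 nM replicate 1 left out (adjusted p 0.0115). For CHD3 and CHD4 the differences were -0.18 (adjusted p 0.6) and -0.22 (adjusted p 0.565), with -0.43 and -0.47 without that array (adjusted p 0.00322 and 0.00216).

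In TC32 at 500 nM, 4 members were lower than DMSO as deposited (62.9% of all tested genes were) and 1 was higher (0.946% of all were). These were CHD1, CHD6, CHD8 and CHD9 below and CHD2 above, with a member median of -0.80 against -0.64 over all tested genes. After centring, the same 4 were lower and 4 were higher, CHD2, CHD3, CHD4 and CHD7, against 30.8% and 41.3% of all tested genes. The member median on that scale was -0.01 against 0.15. CHD2, CHD6 and CHD7 stand in these counts as descriptions. The TC32 DMSO arrays of CHD2 entered the difference by which the genes were chosen, and the 500 nM arrays of CHD6 lay under the filter level. All TC32 arrays of CHD7 lay under that level too, and CHD7 passed the filter only through its A673 arrays.

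Tested directly, the 500 nM effects did not pass the threshold for a difference between the lines in any member as deposited. By limma 0 of the 8 members were higher and 0 lower in TC32 minus A673, where 0.552% and 1.28% of all tested genes were, and 3 were higher at an unadjusted p under 0.05. The largest differences were 0.78 ± 0.32 for CHD6, 0.71 ± 0.29 for CHD9 (adjusted p 0.303) and 0.63 ± 0.27 for CHD3 (adjusted p 0.318). Relative to the array medians 3 members counted as higher, where 3.04% of all tested genes were, and 0 as lower, where 6.75% were. The higher ones were CHD6 (0.74), CHD9 (0.67, adjusted p 0.0356) and CHD3 (0.59, adjusted p 0.00708). CHD6 stands in these counts as a description, since its 500 nM arrays lay under the filter level in both lines. With A673 500 nM replicate 1 left out, the as-deposited values were 0.87 for CHD3, 1.11 for CHD6, 0.70 for CHD7 and 0.89 for CHD9. CHD7 is likewise a description here, since all its TC32 arrays lay under the filter level. For CHD2 the difference was 0.26 ± 0.30 (adjusted p 0.838), and it uses the TC32 DMSO arrays that entered the choice of the genes.

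Under DMSO most members had a higher signal in A673 than in TC32 as deposited, as most genes did. By limma 7 members were higher in A673, where 77.4% of all tested genes were, and 0 were lower, also at an unadjusted p under 0.05, where 5.13% of all were. This count of 7 includes CHD7, which passed the filter only through its A673 arrays and so had to be higher there. It also includes CHD2, whose TC32 DMSO arrays entered the difference by which the genes were chosen. CHD6 leaned on its A673 arrays as well, with TC32 means under the filter level at both doses. These members are described without a test, also where CHD6 and CHD7 stand among the 4 higher in relative terms. CHD7 had a mean of 7.86 in A673 and 5.60 in TC32, a difference of 2.26 ± 0.22, at least 3.77-fold, and 1.56 in relative terms. In relative terms 4 members were higher, CHD4 (0.50), CHD6 (0.41), CHD7 and CHD9 (0.52), where 33.9% of all tested genes were. One member, CHD3, was lower on that scale (-1.05, adjusted p 5.08e-09), where 21.4% were; as deposited it was at -0.36 (adjusted p 0.0679), and it passed without either A673 500 nM array (adjusted p 0.00154 and 0.00155). CHD1 and CHD8 were at 0.78 and 0.70 as deposited but 0.09 (adjusted p 0.603) and 0.01 (adjusted p 0.933) in relative terms, and the as-deposited CHD8 call ended with TC32 DMSO replicate 2 left out (adjusted p 0.059). CHD2 was at 0.95 as deposited and 0.26 in relative terms. As deposited, all tested epithelial (2), endothelial (2), fibroblast (2) and neural (3) markers were also higher in A673. After centring 2, 0, 2 and 2 were. KRT8, KRT18 and COL1A1 lay under the filter level on all TC32 arrays, so they passed through A673 and had to be higher there. The fibroblast marker DCN, outside the filter, went the other way, at 4.93 to 5.14 in A673 and 5.82 to 6.17 in TC32. The part of these markers in the differences was not tested.

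The genes whose pattern over the 12 arrays lay nearest to that of CHD2 were KMT5B, MVB12B and DMXL1. KMT5B encodes a histone H4 lysine methyltransferase, MVB12B a subunit of the ESCRT-I sorting complex and DMXL1 a WD-repeat protein. The measure was the root mean square difference of median-centred log2 values after each gene's own mean was taken off, and it was 0.18 for KMT5B, 0.25 for MVB12B and 0.28 for DMXL1, against a median of 1.15 over all tested genes. KMT5B averaged 8.35 with DMSO, 9.70 at 100 nM and 8.55 at 500 nM in A673, and 7.18, 9.87 and 7.86 in TC32 in the same order. MVB12B averaged 5.40, 7.57 and 6.52 in A673 and 4.53, 7.52 and 5.81 in TC32, with both DMSO means and the TC32 500 nM mean under the filter level. DMXL1 averaged 7.21, 8.78 and 7.52 in A673 and 6.44, 8.54 and 7.07 in TC32. Likeness here includes the TC32 arrays at 100 nM and is a description.

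**Figure D3:**
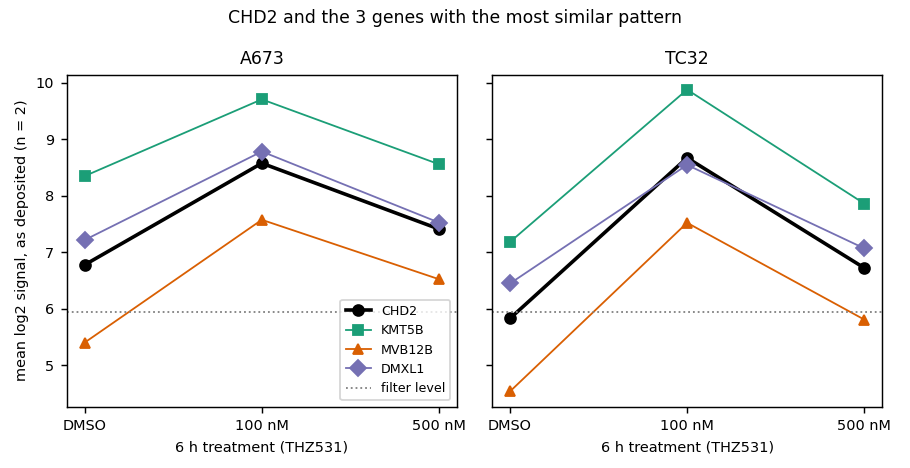
Mean log2 signal as deposited (vertical axis, n = 2 arrays per point) of CHD2 (black) and the 3 genes nearest to it in pattern (coloured) after DMSO, 100 nM or 500 nM THZ531 (horizontal axis), with A673 on the left and TC32 on the right; the dotted line is the filter level. All 4 genes peak at 100 nM in both lines.

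The partner subunits of NuRD, which include the histone deacetylases HDAC1 and HDAC2, were mostly lower at 500 nM as deposited. Of 12 listed partners 11 were tested, and 10 were lower and 0 higher in A673, with a median of -0.60, and 6 were lower with A673 DMSO replicate 1 or A673 500 nM replicate 2 left out. Of all tested genes 82.5% were lower there and 62.9% in TC32. The lowest were the MTA-family gene MTA3 (-1.33) and the methyl-DNA reader gene MBD2 (-1.26), and the highest were CDK2AP1 (-0.11, adjusted p 0.532; 0.73 after centring) and HDAC1 (-0.39, adjusted p 0.0356; 0.44 after centring). The HDAC1 call ended whenever 1 array was left out, other than A673 500 nM replicate 1, with adjusted p from 0.0529 to 0.17, and CDK2AP1 passed without that array (-0.39, adjusted p 0.00408). In TC32 6 were lower and 0 higher, with a median of -0.65, GATAD2B (-1.49) and MBD2 (-1.44) lowest and CDK2AP1 (0.01, adjusted p 0.946; 0.81 after centring) and HDAC1 (-0.11, adjusted p 0.602; 0.69 after centring) highest. After centring, 3 were lower and 4 higher in A673, where 27.4% and 29.6% of all tested genes were, and 3 lower and 5 higher in TC32, where 30.8% and 41.3% were. The centred medians of the partners were 0.23 in A673 and 0.14 in TC32, against 0.10 and 0.15 over all tested genes.

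Other SNF2-family ATPases were mostly lower at 500 nM as deposited, as were most tested genes (82.5% in A673 and 62.9% in TC32). Of 23 listed 21 were tested, and 20 were lower and 0 higher in A673 as deposited, with a median of -0.91 against -0.73 over all tested genes, and 18 lower and 0 higher in TC32, with a median of -0.78 against -0.64. INO80, the motor of the complex of that name, was at -2.76 in A673 and -2.25 in TC32, with 500 nM means under the filter level. SMARCAD1, a remodeller linked to replication, was at -2.48 and -3.21. At the other end were ATRX, a heterochromatin remodeller, at -0.37 in A673 (adjusted p 0.0824) and 0.06 in TC32 (adjusted p 0.8), and the ISWI motor gene SMARCA1 at -0.58 (adjusted p 0.00583) and -0.27 (adjusted p 0.216). After centring ATRX was at 0.47 and 0.85 and SMARCA1 at 0.25 and 0.52. The ATRX value in A673 passed with A673 500 nM replicate 1 left out (-0.68, adjusted p 1.21e-05), and the SMARCA1 call there ended with replicate 2 of that group left out (-0.22, adjusted p 0.116). In TC32 SMARCA1 passed without either A673 500 nM array (adjusted p 0.0156 and 0.0155). After centring, 9 were lower and 1 higher in A673, where 27.4% and 29.6% of all tested genes were, and 9 lower and 4 higher in TC32, where 30.8% and 41.3% were. The centred medians were -0.07 in A673 and 0.01 in TC32.

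A further list held CHD partners such as CTCF and WDR5, elongation factors and ISWI partner subunits. All 17 were tested, and 17 were lower in A673 and 15 in TC32 as deposited, with medians of -1.15 and -1.14, and 0 were higher. Of all tested genes 82.5% were lower in A673 and 62.9% in TC32, and 0.946% were higher in each. The insulator protein gene CTCF was lowest in both lines, at -1.93 in A673 and -2.53 in TC32, followed by the elongation factor gene RTF1 in A673 (-1.91) and WDR5, of the H3K4 methyltransferase complexes, in TC32 (-2.03). The FACT subunit gene SSRP1 was highest, at -0.35 in A673 (adjusted p 0.0473) and -0.22 in TC32 (adjusted p 0.244), next to the heterochromatin protein gene CBX3 at -0.54 (adjusted p 0.00322) and -0.33 (adjusted p 0.084). After centring SSRP1 was at 0.48 and 0.57 and CBX3 at 0.29 and 0.46. The SSRP1 call in A673 ended whenever 1 array was left out, other than A673 500 nM replicate 1, with adjusted p up to 0.271. That of CBX3 ended with A673 DMSO replicate 2 (adjusted p 0.0754) or A673 500 nM replicate 2 left out (0.0622). In TC32 both passed without either A673 500 nM array, with adjusted p of 0.0215 for SSRP1 and 0.0222 and 0.0224 for CBX3, and CBX3 also with TC32 DMSO replicate 2 left out (-0.63, adjusted p 0.0147). After centring, 9 were lower and 1 higher in A673, where 27.4% and 29.6% of all tested genes were, and 11 lower and 3 higher in TC32, where 30.8% and 41.3% were. The centred medians were -0.32 in A673 and -0.35 in TC32.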

How the data were processed

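Biotin-labelled total RNA of 12 samples was measured on arrays, with external ERCC controls added per the labels' protocols. The deposited table holds log2 signals normalised by the authors; the method, and whether arrays were scaled to those controls, is not given in the sources used here. MAS5, GRCh37 and hg19 stand in the submitters' processing notes with no role. Of 49395 entries, 44994 were annotated to 1 gene, and the 2829 with at most 2 decimals were not used. Of 17029 genes, 116 shared all values with another symbol and were left out, and 16913 remained, each with its brightest entry. Genes at or above the 40th percentile of mean signal (5.94) were tested.

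limma 3.58.1 (R 4.3.3) estimated the 6 group means from the 12 arrays together, with a variance trend, two-sided tests and a Benjamini-Hochberg adjusted p under 0.05 over all 10148 tested genes. Tables were made with Python 3.11.15 and pandas 2.3.3. The median residual SD was 0.19 as deposited and 0.12 after centring each array on its median. As deposited the prior degrees of freedom were infinite, and an offset of 1 array enters every gene alike, which adjusted p-values do not count. The labels call the duplicates biological, and the number of arrays limits the precision. P-values cover only spread between duplicates. As deposited that spread came from the trend over all tested genes, not from the gene's own duplicates. Very small p-values there do not measure how closely the duplicates of that gene matched. Folds with a group mean under 5.94 are counted from that level as lower bounds. All 9 members are named; of each list, the 2 highest and 2 lowest differences at 500 nM in each line are named, and of all tested genes the 3 nearest CHD2 in pattern. The members and lists were chosen with earlier results of these data known. The code was tested on simulated data.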

Additional observations from a re-analysis of the deposited data

Results flagged for a closer look

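CHD3 moved to opposite sides of DMSO in the lines at 100 nM as deposited. Both 100 nM arrays of TC32 lay above both DMSO arrays, and both 100 nM arrays of A673 lay below theirs. The effect in TC32 minus that in A673 was 0.72 ± 0.27 (log2, SE), and 0.30 relative to the array medians, where the mean of both lines lay above DMSO. The difference was not tested, since it uses the TC32 comparison known when the genes were listed.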

How the results depend on the processing

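Counts of CHD members under the filter at the 50th percentile, no filter, no variance trend or the mean of a gene's distinct value sets stayed within 1.5 times of those reported, although CHD6 has no value at the 50th percentile. With only the 6 A673 arrays in the fit, 2 members were lower at 100 nM, in place of 5, as CHD1, CHD3 and CHD8 no longer passed (adjusted p 0.11, 0.206 and 0.0848). Centring the arrays on their medians gave 4 lower and 2 higher in A673 at 500 nM, 1 lower and 2 higher in A673 at 100 nM, 4 higher in TC32 at 500 nM, 3 higher for the 500 nM effect in TC32 minus A673, and 4 higher and 1 lower for A673 against TC32 under DMSO. The replicate block on centred arrays gave the same counts, and the replicate block as deposited gave 7 lower in A673 at 500 nM and 6 lower at 500 against 100 nM, with CHD7 added (adjusted p 0.0345). The replicate numbers pair nothing by the labels, and the replicate differences of the groups correlated between -0.156 and 0.438. With the TC32 DMSO numbers crossed, an alternative chosen after seeing the data, 7 members were higher and 0 lower in A673 under DMSO.

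A group left with 1 array is assumed to vary like the others. Members described above without a test stay in the counts of this section. Without each array in turn, members lower and higher numbered 5 to 7 and 0 to 1 in A673 at 500 nM, 2 to 6 and 1 in A673 at 100 nM, 3 to 8 and 0 at 500 against 100 nM, 4 to 5 and 1 in TC32 at 500 nM, 0 and 0 to 4 for the difference between lines, and 0 to 1 and 6 to 7 under DMSO.

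Centring, with and without the replicate block, turned the sign of CHD3 (0.22), CHD4 (0.39), CHD7 (0.009), HDAC1 (0.44), CDK2AP1 (0.73), SMARCA1 (0.25), ATRX (0.47), CBX3 (0.29) and SSRP1 (0.48) in A673 at 500 nM. It did so for CHD1 (0.059), CHD3 (0.19), CHD4 (0.39), CHD7 (0.27) and CHD8 (0.025) in A673 at 100 nM, and for CHD3 at 500 against 100 nM (0.029). In TC32 at 500 nM it did so for CHD4 (0.44), CHD7 (0.53), HDAC1 (0.69), SMARCA1 (0.52), CBX3 (0.46) and SSRP1 (0.57). These turns follow from the shift that centring removes.

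Some values changed sign without 1 array and did not pass the test on the turned side. They ranged from -0.427 to 0.058 for CHD3 and -0.475 to 0.041 for CHD4 in A673 at 500 against 100 nM, and from -0.027 to 0.065 for CHD3 in TC32 at 500 nM. For the 500 nM effect in TC32 minus A673 they ranged from -0.19 to 0.12 for CHD1, -0.032 to 0.55 for CHD2, -0.17 to 0.35 for CHD4 and -0.35 to 0.15 for CHD8. CDK2AP1 ranged from -0.39 to 0.18 in A673 and from -0.076 to 0.102 in TC32 at 500 nM. Dim signal limits CHD5, which was not tested, and the differences of CHD1, CHD2, CHD6 and CHD7 with a group mean under 5.94.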
